A study of Arabidopsis thaliana with 32 samples.

Results

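The chloroplast of Arabidopsis thaliana carries its own small circular genome, and the genes on it were followed over 2 cycles of 24 h in whole seedlings. The members described here are all loci on the plastid genome whose summed level averaged at least 1 FPKM (FPKM is the number of sequenced fragments scaled by transcript length and library size) in a table: 38 of 133 plastid loci listed under continuous light and 56 of 130 under long days, with 37 members passing in both tables. The tables held 32433 and 32311 loci in all, of which 18505 and 18757 reached the same mean. Seedlings of the wild type Col-0 were raised for 8 days at 24 °C in long days of 16 h light and 8 h dark, after which they either stayed in that cycle or went into constant light. RNA was sampled every 3 h, at hours 2 to 47, as 1 library per time point, which gives 16 libraries per light regime and 32 in all. The labels give the groups the same genotype and no transgene or chemical treatment, and separate them by light regime and sampling hour. They are in conflict on how long the regimes lasted, at 2 days in the treatment protocol and a single day in the design text, and the hours run to 47. The libraries of hours 17, 20 and 23 of each cycle, 6 per regime, were dark in long days and are the subjective night in continuous light, and the other 10 were light in both.

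Plastid genes encode the core subunits of the photosystems, the cytochrome b6f complex, the ATP synthase, the NADH dehydrogenase-like complex, the large subunit of Rubisco, ribosomal proteins and RNAs, transfer RNAs and a bacterial-type RNA polymerase. Most lie in operons that are transcribed as long precursors and cut into shorter RNAs. They are read by the plastid-encoded polymerase, which takes its promoter choice from nuclear-encoded sigma factors, and by a nuclear-encoded polymerase of the phage type. Sigma factor SIG5 is known in Arabidopsis as the link that carries light and circadian information to the light-responsive promoter upstream of psbD. Plastid transcripts mostly lack the long poly(A) tails of nuclear messages, and the sources used here do not give how RNA was selected for these libraries.

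The plastid took a far smaller part of the measured RNA under continuous light than under long days, and the tables were assembled and scaled separately, so the levels are set side by side without a test. Plastid loci made up 0.0104% to 0.0784% of all FPKM per library under continuous light and 1.56% to 2.06% under long days. Mitochondrial loci ranged from 0.00385% to 0.00932% under continuous light and from 0.0168% to 0.0230% under long days. The shoot marker RBCS1A averaged 3617 FPKM ± 795 (SD, n = 16) under continuous light and 2725 FPKM ± 1210 under long days, with 1 long-day library listed at 8.86. Root markers SCR, PIN2 and SHR averaged 9.43 to 12.7 FPKM under continuous light and 13.7 to 16.9 under long days, the root marker WOX5 0.959 and 0.884, and the shoot marker STM 1.53 and 1.85, so RNA of shoot and root was present under each regime. In such bulk tissue, fewer green cells and less plastid RNA per cell cannot be told apart. Nor can either be told from a difference between the libraries in RNA selection, which the sources do not give. The depth of the libraries is unknown, because FPKM keeps no read counts. Each p-value measures the spread between single libraries of different sampling times, without replicates of a time point. Where the cycles are compared with hour of day held constant, it measures the spread of changes between libraries of the same hour of day.

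Several members share bases with a neighbour, and a gene entry shared between loci in the authors' assembly holds 9 tested members of the long-day table and 4 of the other, so their reads may be split uncertainly. The sequences below are the places where neighbouring coding sequences overlap on 1 strand, with 20 bases on each side, and are shown because the listed level is very uneven across 2 of the 3 joints. They are written 5′ to 3′ on the coding strand, from the RefSeq plastid sequence of TAIR10.1, and capitals mark the bases that both coding sequences hold. Of 76 single-exon plastid loci checked, 72 began with a start codon and ended with a stop codon at the coordinates of the files.
psbD and psbC, chrPt:33700-33792, plus strand: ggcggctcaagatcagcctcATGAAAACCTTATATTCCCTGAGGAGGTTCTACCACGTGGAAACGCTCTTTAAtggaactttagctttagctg
atpB and atpE, chrPt:52640-52683, minus strand: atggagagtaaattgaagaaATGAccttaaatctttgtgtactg
rpl22 and rps3, chrPt:83447-83502, minus strand: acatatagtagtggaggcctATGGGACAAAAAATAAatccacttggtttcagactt
The overlaps are 53, 4 and 16 bases long. Across the first joint psbD averaged 408 FPKM in long days while psbC, the gene of the core antenna protein CP43, was listed at 0.0466. Across the third, rps3 averaged 262 FPKM and rpl22 was listed at 0 in every long-day library. Across the 4 bases that atpB and atpE share, the levels were alike, at 2532 and 2328 FPKM.

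A few members held most of the plastid signal, and psbA and rbcL, genes known for high expression in leaves, were not among them. The genes atpB and atpE encode the beta and epsilon subunits of the ATP synthase. In long days they together held 46.0% of the FPKM of all listed plastid loci, and the 10 highest members held 87.1%. Next came rpl16, for a protein of the large ribosomal subunit, at 1475 FPKM ± 169 (SD, n = 16), and rpl14 at 600, rpl36 at 453 and psbD at 408 were also high. By contrast psbA, the gene of the D1 protein of photosystem II, averaged 14.1 FPKM, rbcL 16.8, psbB 8.48 and petB 7.97. Under continuous light the order was different at the top: psaJ, a small photosystem I subunit, averaged 22.3 FPKM, rpl16 12.7, atpB 9.26 and psbI 8.68.

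**Figure D1:**
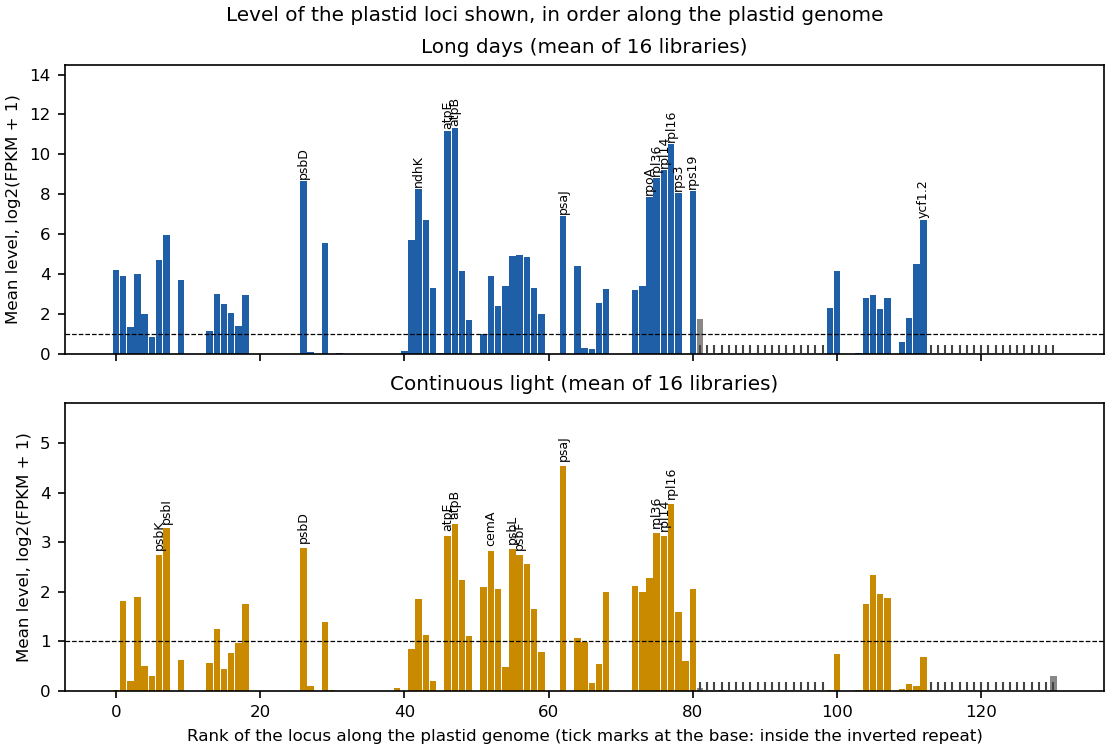
Mean level of the plastid loci over 16 libraries (2 are not shown), as log2(FPKM + 1), in the order of the loci along the plastid genome, for long days (top) and continuous light (bottom). The dashed line is 1 FPKM, tick marks at the base are loci inside the inverted repeat, and the names mark the 12 highest loci shown in each regime: in long days atpB, atpE and rpl16 stand highest, and in both panels the inverted repeat is almost empty.

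Whole stretches of the plastid genome were listed at 0. Of the loci in both tables, 59 were at 0 in every one of the 32 libraries, and of the 36 loci that lie inside the inverted repeat of 26264 bases, 35 averaged under 0.1 FPKM under continuous light. Each gene of the repeat is present in a pair of near-identical copies, among them the 8 ribosomal RNA loci, ndhB and ycf2, so how the authors' counting placed their reads is uncertain. Outside the repeat, 7 neighbours from rps14 to trnT.2 were at 0, including psaA and psaB, the genes of the photosystem I reaction centre, and so were atpA, psbH, psbT and 7 neighbours from trnC to trnT.1. Since every green cell uses psaA, psaB and atpA, these are described here only as listed at 0. The locus just inside the limit was rps18 at 1.11 FPKM under continuous light and atpH at 1.19 in long days, and just outside it were rpl20 at 0.970 and ycf4 at 0.976. Both ndhB copies were listed at 0 too, psbC reached at most 0.112 FPKM in any library and ycf2 at most 0.0994, and clpP and ycf1.2 reached the limit in long days alone.

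The question of the study's design, whether genes follow the day and the clock, gave few calls among the plastid members. In a fit of a 24 h cosine to log2(FPKM + 1) with limma, 4 of 56 members passed an adjusted p of 0.05 in long days, where 31.6% of all loci tested passed. Under continuous light 0 of 38 passed, and 0 had an unadjusted p under 0.05, where 28.6% of all loci passed. The amplitude, the distance from mean to peak on the log2 scale, had a median of 0.13 over the members and 0.18 over all loci in long days, and of 0.14 and 0.16 under continuous light. A test of the difference in rhythm between the regimes called 0 of 37 members, with 0 at an unadjusted p under 0.05 and 7.53% of all loci called. With a term for the cycle the count was 0 of 38 again under continuous light (37.1% of all loci) and 5 of 56 in long days (36.0%).

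The member that passed both for rhythm and for night against day was psbZ, which encodes a small subunit of the photosystem II core and lies downstream of psbD and psbC in their operon. Its coding sequence of 189 bases (chrPt:35751-35939, plus strand, start and stop codons in capitals) is shown because psbZ passed in both of these contrasts.
psbZ: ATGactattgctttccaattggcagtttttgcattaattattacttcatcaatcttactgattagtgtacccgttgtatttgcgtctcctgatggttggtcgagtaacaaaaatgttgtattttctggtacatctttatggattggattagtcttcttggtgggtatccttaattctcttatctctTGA
In long days psbZ read 54.9, 56.5, 51.7, 36.5, 47.04, 39.0, 33.9 and 28.8 FPKM at hours 2 to 23. It read 57.8, 70.3, 58.1, 48.2, 45.4, 45.0, 36.9 and 31.6 FPKM at hours 26 to 47. In both cycles the 3 highest values came at the first 3 sampling hours after lights on and the lowest at the last hour of darkness. Night libraries averaged 35.9 FPKM ± 5.76 (SD, n = 6) and day libraries 52.6 FPKM ± 9.14 (n = 10), and their ranges overlapped, at 28.8 to 45.0 and 36.5 to 70.3. The fitted rhythm peaked at 7.001 h ± 0.976 (SE) with a peak 1.62-fold above the trough, and limma's adjusted p was 0.0227. The night level was lower by 0.54 ± 0.12 (SE) on the log2 scale, with an adjusted p of 0.00745.

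Only psbZ passed in the contrast of night with day in long days, 1 of 56 members against 16.3% of all loci. Within a single cycle its estimate kept its size, at -0.52 ± 0.16 in the first and -0.55 ± 0.17 in the second, but with 8 libraries it no longer passed (adjusted p = 0.147 and 0.154). Without the library of hour 29 the rhythm of psbZ had an adjusted p of 0.0524. The neighbour psbD, which encodes the D2 protein of the reaction centre and carries the light-responsive promoter, stayed between 387 and 479 FPKM in the day and between 317 and 430 at night. Its night estimate of -0.20 ± 0.08 had an adjusted p of 0.0832 and its rhythm one of 0.0720, so it did not pass, with a fitted peak at 10.2 h ± 1.25. Under continuous light psbZ read 0.0852 to 0.485 FPKM in the first cycle and 1.73 to 4.24 in the second, with no rhythm called.

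**Figure D2:**
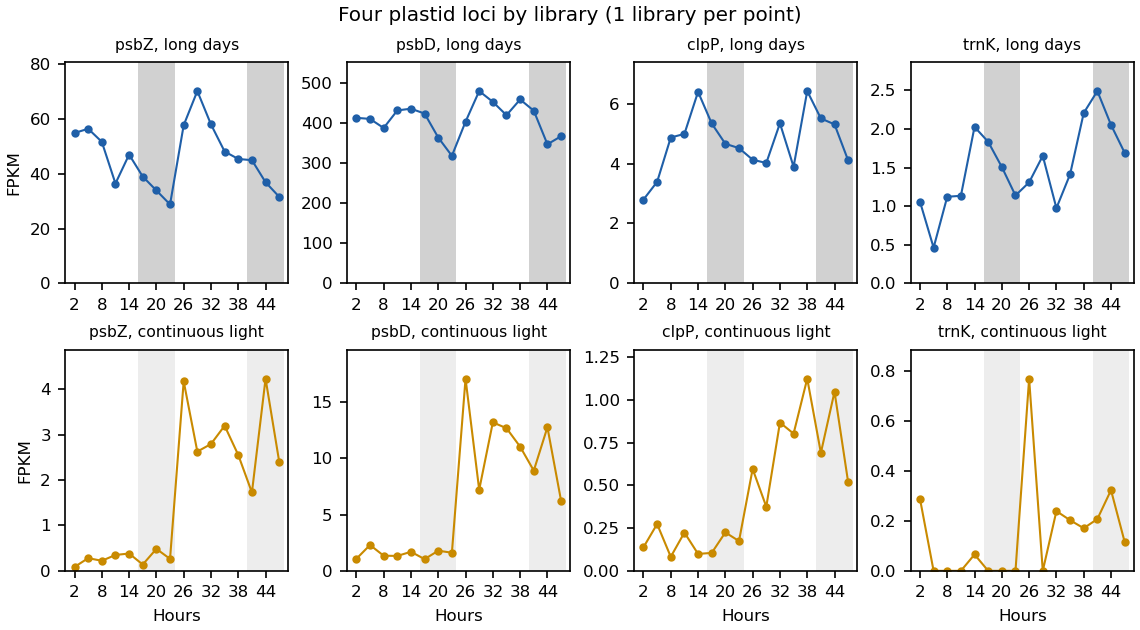
FPKM of psbZ, psbD, clpP and trnK in each library against the hour of sampling, long days on top and continuous light below, with 1 library per point. Dark grey is the dark period and light grey the subjective night: psbZ in long days falls in both cycles from a morning high to 28.8 and 31.6 FPKM at the end of the night, and under continuous light psbZ and psbD step up between hours 23 and 26.

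The other rhythmic members of long days peaked later. For clpP, the proteolytic subunit of the plastid Clp protease, the level went from 2.80 FPKM at hour 2 to 6.40 at hour 14 in the first cycle, and its highest value in the second cycle, 6.43, came at hour 38. Its fitted peak was at 14.9 h ± 0.846 with a 1.48-fold range and an adjusted p of 0.0103. The transfer RNA gene trnK, whose intron holds matK, ranged from 0.461 to 2.49 FPKM around a peak at 17.1 h ± 0.885 (1.60-fold, adjusted p = 0.0132). The polymerase subunit gene rpoC2 ranged from 2.52 to 4.32 FPKM and peaked at 14.5 h ± 1.05 (1.277-fold, adjusted p = 0.0327). Scaling and the way loci were summed ended these calls: clpP lost its call when transcripts spanning several loci were added to it (adjusted p = 0.155), and trnK and rpoC2 when libraries were set to equal medians (adjusted p = 0.0765 and 0.105). The rest of the rpo operon did not pass, with rpoB between 5.75 and 8.46 FPKM and rpoC1 between 0.117 and 2.67.

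Setting each library to its own plastid median kept the call of psbZ. After this centring the rhythm of psbZ peaked at 6.30 h ± 0.809 with a 1.72-fold range (adjusted p = 0.0105) and that of trnK at 17.7 h ± 0.866 with a 1.47-fold range (adjusted p = 0.0157). These were 2 of 56 members, against 21.0% of all loci, and clpP and rpoC2 no longer passed. The centred night contrast called psbZ alone, at -0.54 ± 0.13 and an adjusted p of 0.0154, against 9.88% of all loci. Under continuous light the centred fits called 0 of 38 members for rhythm (22.6% of all loci) and 0 of 38 for night against day (3.57%), and the contrast without centring called 0 of 38 (4.59%). In none of these fits under continuous light did a member have an unadjusted p under 0.05.

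The difference between regimes in the night contrast was tested directly over the 37 members measured in both. Without centring 0 passed, with 0 at an unadjusted p under 0.05, against 5.98% of all loci. With centring psbZ alone passed, at -0.64 ± 0.18 for long days minus continuous light and an adjusted p of 0.0392, against 5.03% of all loci. That call was lost with a pseudocount of 0.1 (adjusted p = 0.286) and in 18 of 32 fits that each left out 1 library.

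**Figure D3:**
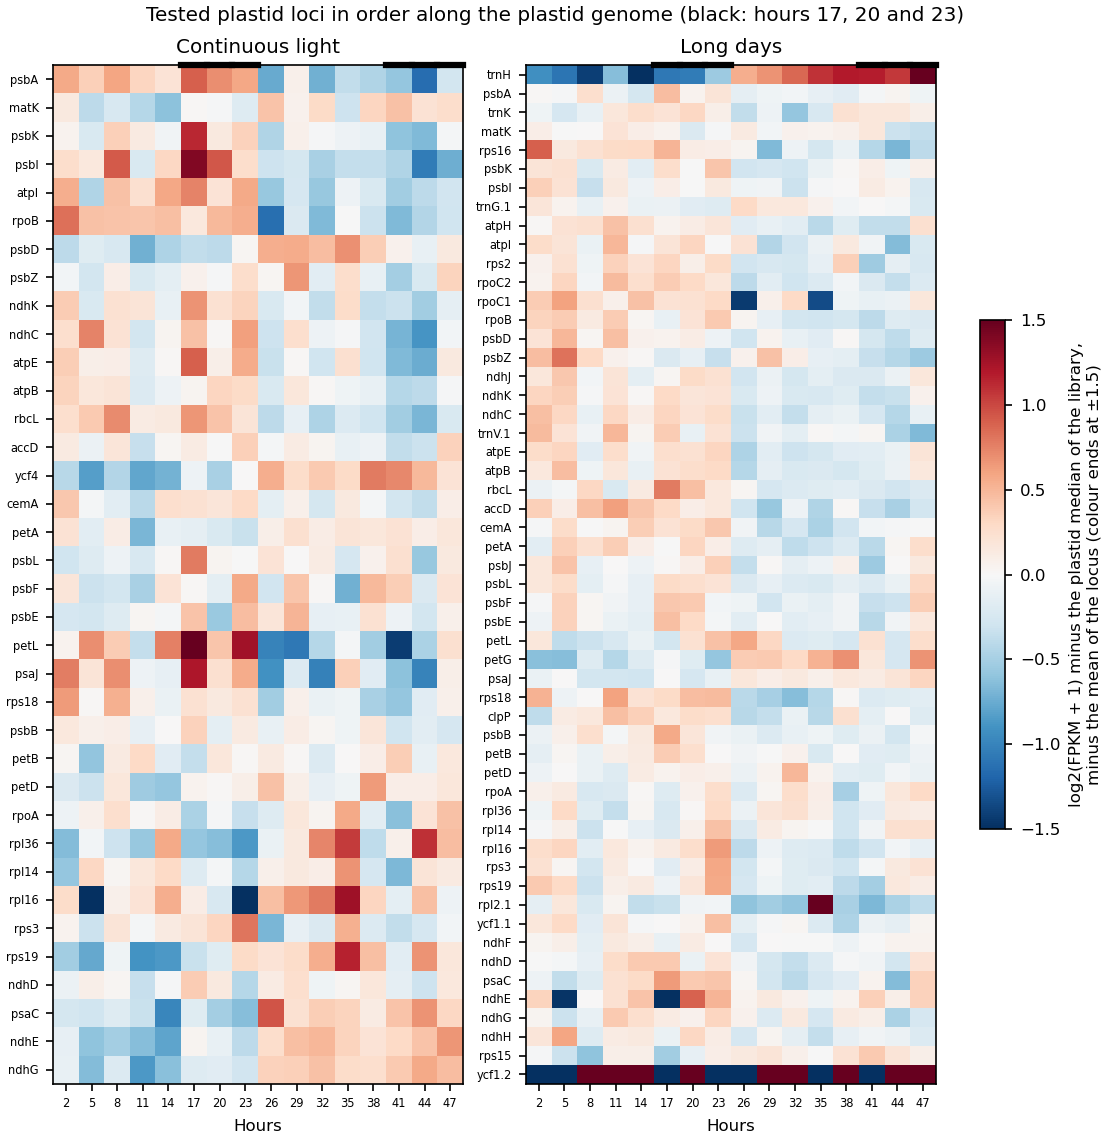
Tested members (rows, in order along the plastid genome, 2 not shown) in each library (columns, by hour), as log2(FPKM + 1) minus the plastid median of the library and minus the mean of the locus; red is above and blue below. The row of psbZ in long days is redder at hours 5 and 29 than during the nights that follow, trnH changes between the cycles, and ycf1.2, ndhE and rpl2.1 jump between single libraries.

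No difference of the plastid as a whole between night and day passed the test. In long days it averaged 1.95% of all FPKM in night libraries and 1.76% in day libraries, a difference of 0.183 percentage points with an exact permutation p of 0.0263 (two-sided) and an adjusted p of 0.105 over 4 tests. Under continuous light the means were 0.0329% and 0.0323% (adjusted p = 0.997). The median level of the tested members was 3.84 on the log2 scale both at night and in the day in long days, and 1.93 and 1.96 under continuous light (both adjusted p = 0.997, exact permutation).

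What changed in the plastid under continuous light was the level between the cycles. Cycle, sampling day and time in constant light run together in these libraries and cannot be told apart. With the hour of day held constant, 36 of 38 members rose from the first to the second cycle and 0 fell, where 9.47% of all loci rose and 9.50% fell. For 15 of the 38 the mean of the first cycle was under 1 FPKM, so they entered the set through the cycle in which they were high, and their rise is a description only: matK, atpI, psbZ, ndhC, accD, ycf4, petA, rps18, petD, rps3, rps19, ndhD, psaC, ndhE and ndhG. Of the other 23 members, 21 rose and 0 fell, against 9.30% and 9.60% of all loci held to the same limit in the first cycle. Their median change was 1.41 on the log2(FPKM + 1) scale, against -0.00145 over those loci. With no limit on the level, 51 of 70 plastid loci rose, where 12% of all loci were called in either direction. For 18 of the 23, the lowest library of the second cycle lay above the highest of the first, against 0.737% of all loci so limited; over all 38 members it was 31, against 0.832%. The share of the plastid went from 0.0137% ± 0.00219 (SD, n = 8) to 0.0514% ± 0.0159 (n = 8), and no library of the first cycle reached the lowest of the second, at 0.0294% (exact permutation, two-sided, p = 0.000155, the smallest these permutations can give, and 0.000207 adjusted over 4 tests). Mitochondrial loci went from 0.00474% to 0.00678% over the same libraries, and their part in the result was not tested.

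**Figure D4:**
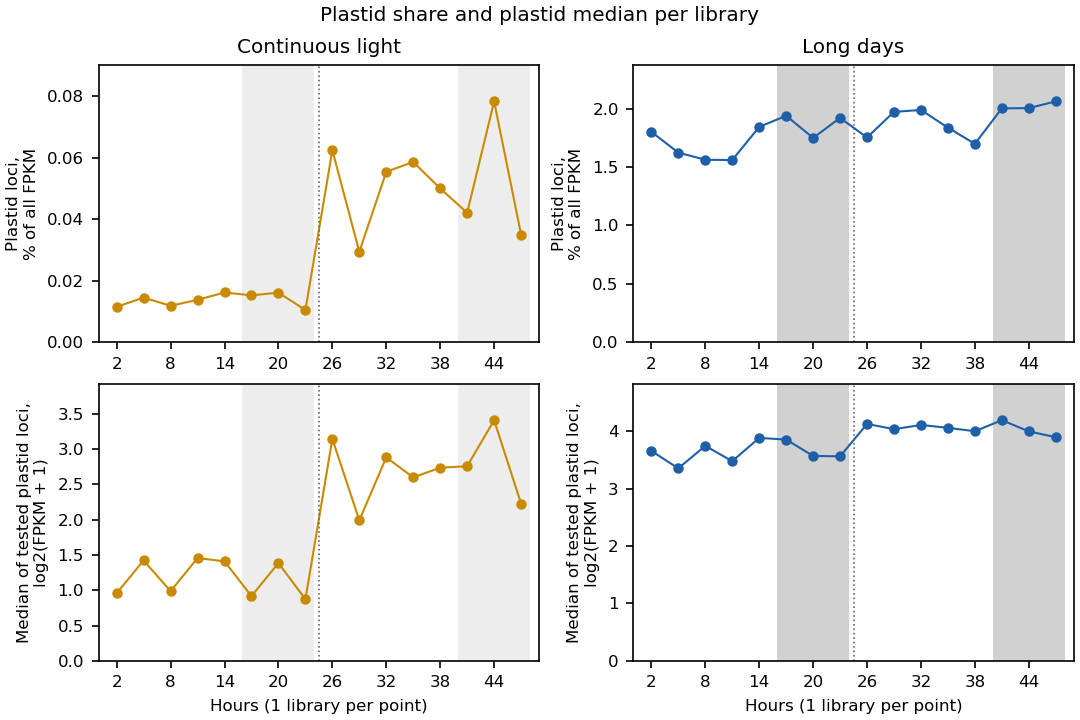
Share of all FPKM in plastid loci (top, percent) and median level of the tested members (bottom, log2(FPKM + 1)) in each library against the hour of sampling, with the dotted line between the cycles. Under continuous light all 8 libraries after hour 24 lie above all 8 before it, and in long days the share lies between 1.56% and 2.06% throughout.

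Members that rose were found in every functional group with tested members, and the counts include those that entered through the second cycle. Of the genes named here and in the next paragraph, these are ndhE, ndhG, ndhD, petA, psaC, rps19, matK, accD, ycf4 and psbZ. Their rise is a description only, and the groups of matK and ycf4 held no other tested member. Among the photosystem II genes 8 of 9 rose: psbD from 1.52 FPKM ± 0.416 (SD, n = 8) to 11.1 ± 3.57, which is 4.68-fold on the fitted scale, and psbB 2.65-fold. The libraries of psbD ran from 1.04 to 2.29 FPKM in the first cycle and from 6.24 to 17.1 in the second, without overlap. psbA, whose cycles overlapped at 1.43 to 2.77 and 2.44 to 3.68 FPKM, rose by 0.49 ± 0.08 on the log2 scale (adjusted p = 0.00603), and psbI, at 0.54 ± 0.17, missed the threshold with an adjusted p of 0.0536. All 5 ndh genes tested rose, led by ndhE (2.33 ± 0.13) and ndhG (2.31 ± 0.13), and ndhD rose 3.03-fold. Of the 5, only ndhK averaged at least 1 FPKM in the first cycle. Of the b6f genes petA, the gene of cytochrome f, rose 3.65-fold and petB 3.16-fold, while the small subunit gene petL gave 0.37 ± 0.32 (adjusted p = 0.459). Both photosystem I members rose, psaC 5.25-fold and psaJ 1.60-fold. All 3 ATP synthase members rose, among them atpB from a fitted log2 level of 2.55 to 3.83. rbcL rose 1.76-fold.

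Genes for gene expression and for other tasks rose as well. All 8 ribosomal protein members rose, among them rps19 5.18-fold and rpl16 5.54-fold, although rpl16 was listed at 0 at hours 5 and 23. In the rpo genes rpoA rose 3.15-fold and rpoB 1.52-fold. matK, the intron maturase, ranged from 0.177 to 0.894 FPKM in the first cycle and from 2.07 to 8.05 in the second, a 3.92-fold rise on the fitted scale. accD, the plastid-encoded subunit of acetyl-CoA carboxylase, rose 2.72-fold. ycf4, a photosystem I assembly factor that averaged 0.237 FPKM in the first cycle and 6.31 in the second, gave an estimate of 2.47 ± 0.19. Because 1 is added before the logarithm, these folds understate the change of the lowest members: psbZ averaged 0.276 FPKM in the first cycle and 2.97 in the second, and its fitted fold was 3.06. Limited to means of at least 5 FPKM, 14 members were left to test and all 14 rose. In that fit 23.9% of all loci were called in either direction.

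Relative to the plastid median, the members did not rise evenly. After centring, 8 of 38 rose (8.94% of all loci) and 8 fell (9.78%) under continuous light. Among those that gained on the median were ndhG, psaC, ycf4, ndhE, psbD, matK and rps19. All of these except psbD entered the set through the second cycle, so their gain is a description only. Those that fell behind it were psbA (-1.05 ± 0.16), rpoB (-0.94 ± 0.15), rbcL (-0.73 ± 0.12), psbI, atpI, petL, ndhC and psaJ. Of these, atpI and ndhC also entered the set through the second cycle, so their values are a description only. Of the 23 members with a first-cycle mean of at least 1 FPKM, 2 rose and 6 fell (8.81% and 9.87% of all loci so limited). Photosystem II genes stood in both lists, psbD in the first and psbA and psbI in the second.

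**Figure D5:**
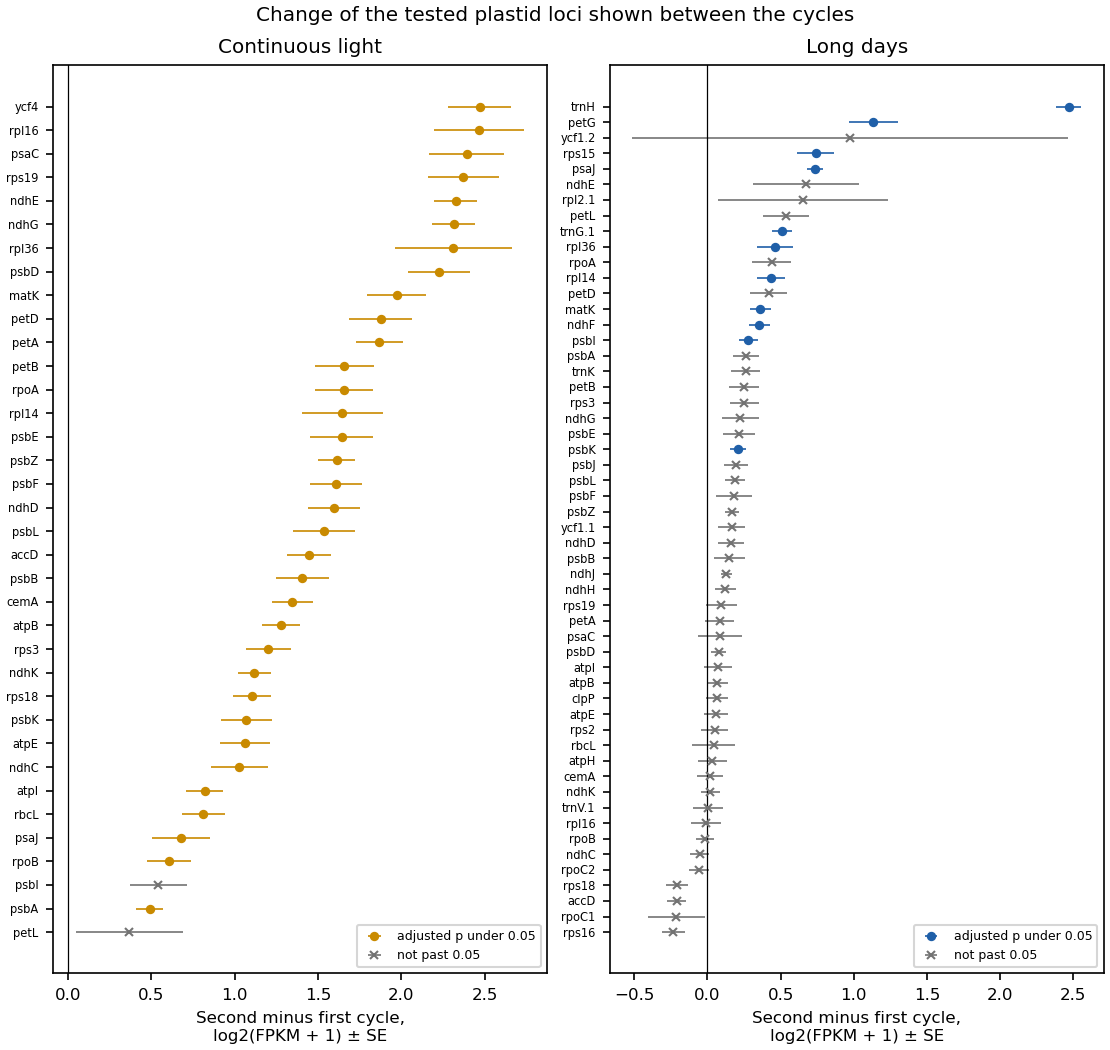
Change from the first to the second cycle for the tested members (2 not shown), in log2(FPKM + 1) with its standard error, for continuous light (left) and long days (right); circles passed an adjusted p of 0.05 and crosses did not. Under continuous light the estimates run from 0.37 for petL to 2.47 for ycf4, and in long days most lie within 0.5 of 0 while trnH stands at 2.47.

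In long days the cycles differed for fewer members, and other ones led. Here 11 of 56 rose (6.23% of all loci) and 0 fell (8.92%), with a median of 0.17 over the members. First by far was trnH, the histidine transfer RNA gene, which read 3.40 to 6.43 FPKM in the first cycle and 22.4 to 41.1 in the second, without overlap (2.47 ± 0.09, adjusted p = 5.42e-07). Its 73 bases are shown because no other member moved as much in long days (chrPt:4-76, minus strand, GTG anticodon in capitals).
trnH: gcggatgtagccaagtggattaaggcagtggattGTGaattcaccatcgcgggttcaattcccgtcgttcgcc
Under continuous light trnH was at 0.0969 FPKM or less in every library. The b6f gene petG rose 2.19-fold, rps15 1.67-fold and psaJ 1.67-fold, and trnG.1 rose 1.42-fold, a value that rests on an assembled transcript across its intron. The other risers were ndhF, matK, rpl14, psbI, psbK and rpl36, by 0.21 to 0.46 on the log2 scale. Of the 56 members, trnH, psaJ and rps15 had cycles that did not overlap, against 0.235% of all loci. psbD, atpB, rbcL and rpoB gave between -0.02 and 0.08, with adjusted p-values of 0.361 or more.

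The plastid share in long days went from 1.75% to 1.91% between the cycles, with an adjusted exact permutation p of 0.0404 that passed the threshold no longer in 9 of the 16 fits that each left out 1 library (at most 0.0774). The median of the members went from 3.64 to 4.05. Relative to that median, 12 plastid loci were called in all when loci of any level were kept (13.4% of all loci). With the limit of 1 FPKM, 3 members rose (9.96% of all loci) and 22 fell (7.56%). Those that rose were trnH, psaJ and petG, and accD, rps16, rpoB, rpoC2 and rps18 led those that fell, by 0.43 to 0.65 on the log2 scale. These falls are relative to a median that itself rose by 0.41. Without centring 0 members fell, and the median change of the members was 0.17. Taking the change between cycles in long days minus that under continuous light, 33 of 37 members were lower (10.1% of all loci) and 0 were higher (8.31%). The 33 include members that entered the set through the second cycle under continuous light. The 4 that did not pass were psbA, psbI, petL and psaJ.

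Neighbours in an operon kept a steadier ratio than pairs of members in general. Over the 16 long-day libraries, the log2 ratio of neighbouring members in an operon had a median SD of 0.20 over 30 pairs, against 0.32 over all 1540 pairs of members. Under continuous light these were 0.41 over 22 pairs and 0.53 over 703. As members share libraries and neighbours can share reads, this is a description without a test. The tightest pairs of long days included atpE and atpB (SD 0.07) and ndhK and ndhC (0.10). For ndhC, ndhK and ndhJ the levels were uneven but steady, at 104, 303 and 50.4 FPKM. The psbD to psbZ ratio was looser, with an SD of 0.27. Operon by operon, the psbB operon had 3 of 5 genes tested in each regime and the psaA operon 0 of 3. The rpl23 to rpoA block had 8 of 11 tested under continuous light, all of which rose between the cycles. Of these, rps3 and rps19 averaged under 1 FPKM in the first cycle, so their rise is a description only. In long days the block had 9 of 11 tested, of which rpl36 and rpl14 rose.

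A few members jumped between single libraries. In long days ycf1.2, the full-length gene of the Tic214 protein, was between 0.0758 and 0.127 FPKM in 7 libraries and at 143 to 224 in the other 9. An assembled transcript in the same gene entry had the opposite pattern, and the sum of both stayed between 144 and 248 FPKM. rpl2.1 was at 0 in all long-day libraries but that of hour 35, at 36.4 FPKM. The gene ndhE fell to 0.101 and 0.109 FPKM at hours 5 and 17 among values of 2.90 to 6.003, with its neighbours ndhG and psaC also low at hour 5, and rpoC1 to 0.117 and 0.139 at hours 26 and 35. Assembled transcripts that end before psbD summed to 318 to 668 FPKM in long days, where psbD itself read 317 to 479. In all, 12.1% to 20.01% of plastid FPKM under continuous light and 10.1% to 14.4% in long days lay in assembled transcripts.

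The nuclear genes that serve plastid transcription were measured in the same libraries. Of 20 listed (6 sigma factors, 2 phage-type polymerases and 12 polymerase-associated proteins), 15 were rhythmic under continuous light, where 28.6% of all loci were, and 11 in long days, where 31.6% were. Whether these shares differ from those of the plastid members was not tested. SIG5 peaked at 4.98 h in long days with a 10.7-fold range and at 2.70 h under continuous light with a 4.60-fold range, and fell by 2.00 on the log2 scale at night in long days (adjusted p = 0.0103). Between the cycles 4 of the 20 rose under continuous light (9.47% of all loci), by at most 0.41 on the log2 scale for PAP2. In long days 6 rose (6.23%), by at most 0.27 for PAP7, and 1 fell (8.92%), PAP9 by 2.61.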

How the data were processed

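RNA was measured by Illumina sequencing in 32 libraries, 16 per light regime, from DNase-treated total RNA, per the labels' protocols. The values are FPKM per transcript as deposited by the authors in 2 tables, each with its own assembled transcripts, on build TAIR10 per the submitters' processing notes; the sources used here do not give aligner, quantifier, strand or RNA selection. FPKM keeps no counts, so depth is unknown and no counting interval can be given.

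FPKM was summed per locus over annotated transcripts and assembled transcripts that overlap no other locus. Loci with a mean of at least 1 FPKM in a table were tested as log2(FPKM + 1), so a fold change understates the change of low genes. limma 3.58.1 (R 4.3.3, trend) was fitted to all loci of a table, with Benjamini-Hochberg adjustment over all of them and a threshold of 0.05, two-sided. Rhythm was a cosine and sine of 24 h. Night was hours 17, 20 and 23 of each cycle. The cycle contrast held hour of day as a factor of 8 levels. Differences between regimes were interactions over 32 libraries. In centred fits, the plastid median of a library was subtracted from plastid loci and the median of other loci from the rest. Centred cycle contrasts, their difference between regimes and the tests of share and median by cycle were added after the data were seen. Single values per library were compared by exact permutation, which treats successive libraries of a regime as interchangeable. The fits were tested on simulated data.

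The members and lists were chosen with earlier results of these data known. Named in full were 21 genes of the main complexes, the up to 6 members of smallest adjusted p in each fit, and those next to the limit of 1 FPKM; trnH, ycf1.2, rpl2.1 and other members are named as operon partners or because their values stood apart, chosen after their values were seen. Alternatives were a pseudocount of 0.1, no filter, a mean of at least 5 FPKM, annotated transcripts only, transcripts spanning several loci added, equal medians, quantile normalization, hour as a factor, cycle as a term, single cycles and each library left out. Sequences are from the RefSeq plastid genome of TAIR10.1. Single values of 2 members are not reported here; they stay in the fits and counts.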

Additional observations from a re-analysis of the deposited data

Results flagged for a closer look

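Among 108 highest or lowest libraries of member groups examined, 5 stood far from the rest of their group by Dixon's test, which chance flags at a low rate too. In long days ndhE read 0.109 FPKM at hour 17, with the other night libraries at 4.03 to 6.003, and 0.101 FPKM at hour 5, with the other day libraries at 2.90 to 4.95. At the same hour 5, ndhG read 2.80 FPKM (the others 4.78 to 7.90) and psaC 3.07 FPKM (the others 5.06 to 8.28). These 3 genes are neighbours on the plastid genome. rbcL read 29.1 FPKM at hour 17, with the other night libraries at 14.5 to 18.6.

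Differences between the regimes that themselves passed the test with limma are given here for 7 results: the only one in the centred night contrast, and the 6 of smallest adjusted p among the 33 in the change between cycles. The night contrast of psbZ relative to the plastid median differed by -0.637 ± 0.183 (SE, adjusted p = 0.0392). The change between the cycles, long days minus continuous light on the log2 scale, was -1.45 for psbZ, -2.09 for ndhG, -1.66 for accD, -2.15 for psbD, -1.79 for petA and -1.31 for rps18, with adjusted p-values from 7.31e-07 to 9.7e-06. Of these, psbZ, ndhG, accD, petA and rps18 averaged under 1 FPKM in the first cycle under continuous light. They entered the set through the second cycle, so their differences are a description only.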

How the results depend on the processing

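Percentages in parentheses here are the share of all loci called in the same fit, in either direction for contrasts. The rise of the members between the cycles under continuous light kept its direction in each alternative. When 1 library was left out, 34 to 39 were called. With a mean of at least 5 FPKM, 14 were called (23.9%), where 14 were tested. Held to 1 FPKM in the first cycle, a limit chosen after seeing the data that leaves fewer members, 21 were called (18.9%). Relative to the plastid median, 48 of 70 were called under continuous light with no filter (12%), 11 of them higher. At 5 FPKM 6 were called (23.9%), 2 of them higher. With the limit of 1 FPKM in the first cycle 8 were called (18.7%), 2 of them higher. The main centred fit had 8 higher and 8 lower, so this balance depended on the filter. In long days 12 were called with no filter (13.4%) and 10 at 5 FPKM (18.7%). When transcripts spanning several loci were added 13 were called (16.5%), and without single libraries 15 to 28. The difference between regimes in the change between cycles called 12 at 5 FPKM (22.3%). The rhythm in long days called 2 at 5 FPKM (36.7%), 1 with hour as a factor (24.1%) and 3 to 6 without single libraries. Its call of rpoC2 was lost without any of 5 libraries (limma, adjusted p at most 0.0801). The centred rhythm called 1 with hour as a factor (17.5%), 4 with cycle as a term (26.3%) and 2 to 4 without single libraries. The night contrast in long days called 2 with equal medians (9.88%) and 3 with quantile normalization (9.97%), 2 of these 3 higher at night. It called 0 in the first (0.219%) and 0 in the second cycle alone (0.458%), and 1 to 2 without single libraries. Centred, it called 4 at 5 FPKM (13.1%) and 3 with several-locus transcripts (10.5%). Centred, it also called 0 in either cycle alone (0.0693% and 0.299%) and 1 to 2 without single libraries. The centred night difference, where psbZ passed in the main fit, called 0 members with a pseudocount of 0.1 (4.85%), no filter (2.73%) or 5 FPKM (7.0%). It called 0 with annotated transcripts only (3.16%) or several-locus transcripts (5.29%), and 0 to 1 without single libraries. With every plastid transcript counted, the night difference in share under continuous light was -8.507e-05 percentage points, and that between cycles in long days 0.1758, no longer past the threshold. Without single libraries, the night difference in share ranged from -0.008594 to 0.004994 under continuous light and from 0.1593 to 0.2219 in long days, that in the median from -0.3265 to 0.1808 and from -0.06875 to 0.05711, and the cycle difference in share in long days from 0.1379 to 0.196. With sampling hour as a replicate block, 0 members were called for the rhythm difference (5.97%) and 0 for the night difference (9.79%). For the centred night difference 1 was called (8.89%). The number is the sampling hour, since each time point has 1 library. The causes were not tested. Depth is unknown, so what low values can show is limited to their spread between libraries.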
